A study of Homo sapiens with 4 samples.

Results

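The genes described here are 54 genes of mitosis, chosen by symbol from the 19970 genes of the deposited count table. They hold the cyclin B and CDK1 switch with its regulators, mitotic kinases, the chromosomal passenger complex, the spindle checkpoint, kinetochore proteins, mitotic kinesins, other spindle proteins, the anaphase-promoting complex (APC/C) with its partners, and cytokinesis factors. They were chosen by name with earlier results of these data known, and all 54 were in the table.

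A cell enters mitosis when cyclin B activates the kinase CDK1. The chromosomes condense, their kinetochores attach to spindle microtubules, and the spindle checkpoint holds back the APC/C ubiquitin ligase until every kinetochore is attached. The APC/C then marks securin and cyclin B for destruction, the sister chromatids separate, and the cell divides. Most of these genes are transcribed late in the cell cycle, in G2 and M phase, so in tumor tissue their RNA is commonly read as a sign of dividing cells.

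COLO205 is an established human colorectal cancer cell line. The cells were exposed for 24 h to nonylphenol (NP), an alkylphenol used to make surfactants that acts as an environmental estrogen, at 10-6 M (1 µM), or served as controls. NP was dissolved in DMSO, which the methods name as the control treatment of the growth assays, while the sequenced samples are titled control. The RNA of 2 control samples (24 h) and 2 NP samples (1 µM, 24 h) was sequenced. The study asked which transcripts change in colorectal cancer cells on NP exposure, after assays of cell growth; here that comparison, NP against control, was made for the mitotic genes. The methods speak of parallel experiments for each treatment, but neither they nor the labels say whether the sequenced samples of a group were separate cultures. The p-values and intervals therefore speak of the spread among these 4 samples alone, and that spread may be technical. COLO205 is 1 cell line, and 1 dose and 1 time were sequenced.

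Control samples held 15659794 and 15617930 counts and NP samples 16998129 and 13401691. Of the table's genes, 12616 had enough counts to be tested, and among the 54 mitotic genes 53 did. All 9 markers of colon epithelium had counts, with summed levels of 6926 to 6977 CPM (counts scaled to a common library size) in the 4 samples. Their control means ran from 1.53 CPM (KRT20) to 3291 CPM (KRT8), with CDX1 at 3.06 and CDX2 at 3.99 CPM. Of 9 markers of blood, stromal and endothelial cells 5 were at 0, and the sum of all 9 was 3.01 to 3.76 CPM. Most of that sum was COL1A1, with a control mean of 3.1 CPM, near the level of CDX1 and CDX2. None of the 10 markers with enough counts to be tested, 9 of colon epithelium and COL1A1, passed the test.

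Mitotic gene RNA was nearly level between control and NP samples, and 1 gene passed the test. CKS2, which encodes a small subunit that binds CDK1 and helps it act on its substrates, rose by 22.3%. No mitotic gene was called lower. Across all genes tested, 2.35% were called higher and 1.7% lower at an adjusted p under 0.05 (edgeR's quasi-likelihood test with Benjamini-Hochberg adjustment over the 12616 genes), so a count of 1 higher and 0 lower among 53 is not above that background. The log2 fold change (NP over control) was above 0 in 30 genes and below 0 in 23, beside 6370 and 6246 of all genes tested. Its median was 0.019, beside 0.0015 over all genes tested. The summed level of the 54 genes was 3569 and 3601 CPM in control cells against 3632 and 3643 CPM in NP cells, which is 99.6% and 100.4% of the control mean against 101.3% and 101.6%. In bulk RNA, fewer cells in mitosis and less of an RNA in each such cell cannot be told apart.

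The intervals limit how large a missed change could be only against the spread among these 4 samples, which may be technical. The 95% interval of the log2 fold change lay between 20% lower and 25% higher for 43 of the 53 genes, and within 1.5-fold in both directions for 52. The 10 genes whose interval reached beyond the first of these ranges at 1 end or both were PLK4, TTK, INCENP, CENPA, SPC24, SPC25, NUSAP1, HMMR, DLGAP5 and CKS2, and the gene whose interval passed 1.5-fold was NUSAP1, which had few counts. The standard error (SE) of the log2 fold change was 0.033 to 0.172 over the other 52 genes. Their median fold change in size was 0.055 on the log2 scale, beside a median log2 ratio of 0.056 within the control group and 0.043 within the NP group. The fold change compares means of 2 samples and the ratios compare single samples, which spread more, so the sizes are not directly comparable. The fold change was larger in size than both within-group ratios in 18 of the 53 genes tested (34.0%, NUSAP1 included), beside 31.8% of the 12614 genes tested that had counts in every sample.

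**Figure D1:**
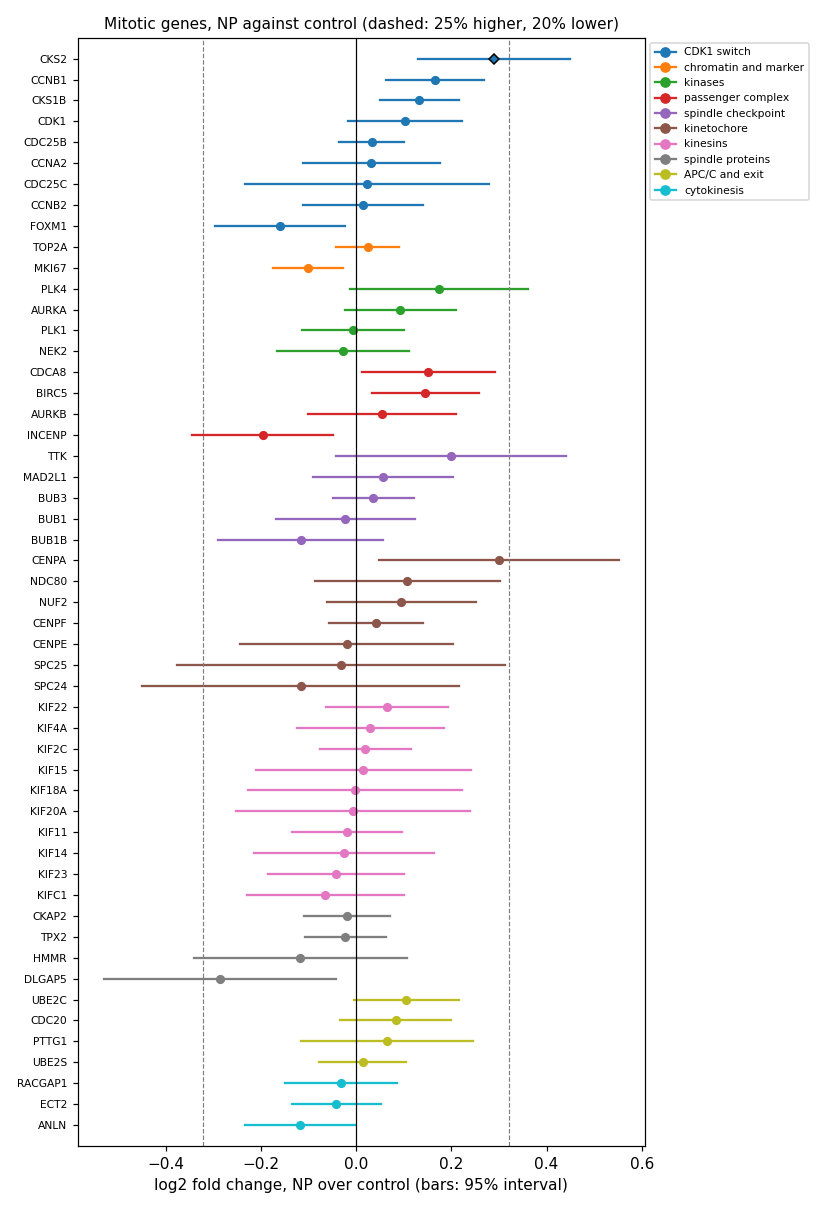
Log2 fold change (NP over control, x axis) of 52 mitotic genes, grouped and colored by role, with bars for the 95% interval and dashed lines at 25% higher and 20% lower. The diamond marks CKS2, at 0.29, the gene that passed the test; the other points lie between −0.29 and 0.30, and NUSAP1 and PRC1, with few counts, are not drawn.

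At an unadjusted p under 0.05, 6 genes were higher (11.3% of 53, beside 8.17% of all genes tested) and 5 lower (9.43%, beside 6.97%). Both NP samples lay above both control samples in 17 genes (32.1%, beside 22.5% of all genes) and below both in 8 (15.1%, beside 21.7%). In 28 of the 53 the groups overlapped, beside 7036 of all 12616 genes tested. Control 1 was the lowest of the 4 samples for 24 genes, against 8 for control 2, 9 for NP 1 and 12 for NP 2. No test over the list was made.

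**Figure D2:**
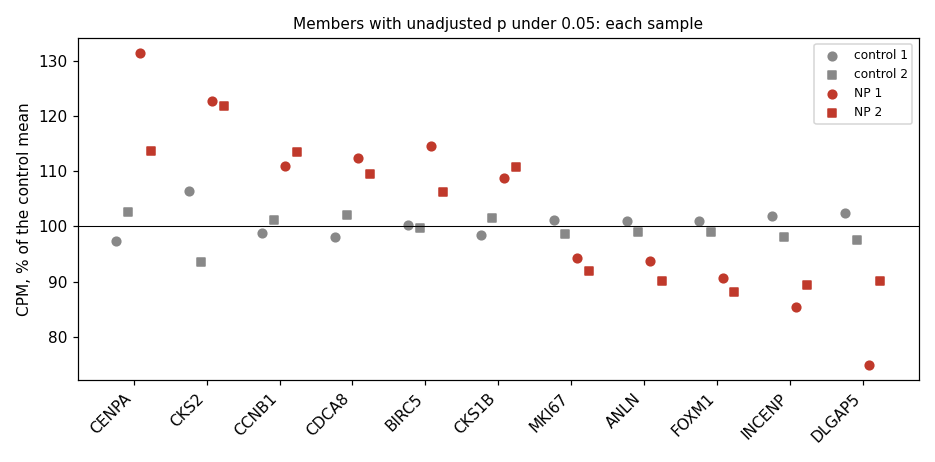
Level in each of the 4 samples (CPM, as % of the control mean; circles sample 1, squares sample 2) of the 11 mitotic genes with an unadjusted p under 0.05. The NP samples (red) lie above both control samples (gray) in CENPA, CKS2, CCNB1, CDCA8, BIRC5 and CKS1B and below them in MKI67, ANLN, FOXM1, INCENP and DLGAP5; after adjustment CKS2 alone passed.

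Many of these genes share a promoter feature that played no part in choosing them. Promoters of mitotic genes often carry a cell cycle homology region, with the core letters TTTGAA or TTCGAA close to the start of transcription. There the MuvB protein complex binds, as a repressor in resting cells and, with B-MYB and FOXM1, as an activator in G2 and M phase. RefSeq promoters (GRCh38.p14, 250 bases before to 50 after each start) were at hand for 46 of the 54 genes, not for AURKA, BUB3, TTK, BIRC5, TPX2, FOXM1, UBE2C and RACGAP1. The letters TTTGAA or TTCGAA, on either strand, stood in the promoters of 35 of the 46 genes (76.1%). The share was 19.5% of all genes with a promoter and 15.7% of those tested. By promoter it was 66.1% of their 59 promoters, beside 16.4% of all 35116 promoters and 12% of the promoters of genes tested. CCAAT on either strand, the letters bound by NF-Y, stood in 72.9% of the 59 promoters, beside 34.6% of all promoters. Both stood in 52.5%, beside 6.4%. A match is a description of letters, not a site shown to be bound. In 32 genes a TTTGAA or TTCGAA match lay within 50 bases of a start, and the share of all genes with such a match was not taken. The windows of 30 bases below belong to the genes with an unadjusted p under 0.05 that hold such a match, and to 4 further genes of different roles, each with its match nearest to a start. They are printed 5′ to 3′ on the strand of the gene, and capitals mark the match (TTCAAA is TTTGAA read on the other strand).
CKS2, chr9:89311154-89311183, plus strand: cgggctgtcggaTTCAAAtccggatcgttg
CKS1B, chr1:154974639-154974668, plus strand: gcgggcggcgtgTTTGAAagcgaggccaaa
CDCA8, chr1:37692481-37692510, plus strand: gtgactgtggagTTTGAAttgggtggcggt
CENPA, chr2:26786026-26786055, plus strand: cggagcgagcgaTTTGAAcgcgagcggcgc
INCENP, chr11:62123989-62124018, plus strand: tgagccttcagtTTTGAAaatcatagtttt
MKI67, chr10:128126435-128126464, minus strand: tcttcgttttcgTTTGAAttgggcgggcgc
DLGAP5, chr14:55191565-55191594, minus strand: cggtgcggcaagTTTGAAtttcgtggaggc
ANLN, chr7:36389830-36389859, plus strand: ctgaaattcaaaTTTGAAcggctgcagagg
CDK1, chr10:60778475-60778504, plus strand: ctcgcacttggcTTCAAAgctggctcttgg
PLK1, chr16:23678848-23678877, plus strand: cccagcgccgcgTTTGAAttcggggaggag
BUB1B, chr15:40161034-40161063, plus strand: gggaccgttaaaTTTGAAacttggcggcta
KIF4A, chrX:70290058-70290087, plus strand: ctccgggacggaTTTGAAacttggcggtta
The windows of BUB1B and KIF4A, on chromosomes 15 and X, share a run of 16 bases, aTTTGAAacttggcgg. Genes with this promoter feature lay on both sides of the comparison. The first 4 windows belong to genes whose NP samples were above the controls, and the next 4 to genes whose NP samples were below. They were picked by unadjusted p, which favors genes whose groups lie apart. The median log2 fold change was 0.0195 over the 34 tested genes that held a match (−0.29 to 0.68). The highest of these was NUSAP1, which had few counts, followed by CENPA at 0.30. The median was 0.014 over the 11 that did not (−0.12 to 0.17), which were AURKB, CCNA2, CCNB1, CENPE, CKAP2, KIF20A, KIF2C, NEK2, PTTG1, SPC24 and UBE2S.

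The CDK1 switch held the gene that passed the test and the pair nearest to it. CKS2 (chr9:89311195-89316703, GRCh38) had 554 and 484 counts in control cells against 688 and 540 in NP cells. In CPM these were 35.3, 30.98, 40.6 and 40.3, so both NP samples were above both controls and lay close together, while the controls differed by more. The log2 fold change was 0.29 with an SE of 0.080, an interval of 1.09-fold to 1.37-fold and an adjusted p of 0.0207 (edgeR). The call was lost without control 2 (log2 fold change 0.20, adjusted p = 0.325), without NP 1 (0.28, adjusted p = 0.148), without NP 2 (0.30, adjusted p = 0.0737) and with an offset for gene length (0.17, adjusted p = 0.301), and it held without control 1.

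Its close relative CKS1B, the other CDK-binding subunit of this family, was at 147 and 152 CPM in control cells against 162 and 165 CPM in NP cells, and the groups did not overlap. Its log2 fold change was 0.13 (SE 0.041, adjusted p = 0.0509), just outside the threshold. CCNB1, which encodes cyclin B1, the activating partner of CDK1, was at 83.1 and 85.2 CPM in control cells against 93.4 and 95.5 CPM in NP cells. Its difference of 12.1% exceeded the gap within either group, with a log2 fold change of 0.17 (SE 0.051) and an adjusted p of 0.0507. CKS1B and CCNB1 were each called in 2 of the 14 alternatives. Their adjusted p was 0.184 and 0.144 with an offset for gene length (edgeR), and 0.278 and 0.317 with DESeq2. CDK1 itself was at 61.6 and 66.9 CPM against 69.7 and 68.2 CPM, again with both NP samples on top, and did not pass the test (0.10, SE 0.060, adjusted p = 0.442). Its log2 fold change was 0.043 without control 1 and 0.16 without control 2.

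None of the other genes of the switch passed the test. CCNB2, the second mitotic B-type cyclin, had a log2 fold change of 0.014, and CCNA2 (cyclin A2, which acts from S phase into early mitosis) one of 0.032. CDC25B and CDC25C, phosphatases that remove the inhibitory phosphates from CDK1, had values of 0.032 and 0.023. FOXM1, the transcription factor that drives many G2 and M phase genes, was at 53.1 and 52.0 CPM in control cells against 47.6 and 46.3 CPM in NP cells. Both NP samples were lower, a difference of −10.5% in the mean that did not pass after adjustment (−0.16, SE 0.069, adjusted p = 0.221). Of its exonic bases 15.9% lie opposite exons of ITFG2 (GENCODE 29), and the sources used here do not say whether counting used strand. The shares opposite exons of other genes were 13.0% for KIF22, 12.7% for KIFC1 and 12.5% for PLK1, so the same limit applies to them. The 9 genes of the switch summed to 99.8% and 100.2% of the control mean in the control samples and to 103% and 107% in the NP samples. Of the 9 log2 fold changes 8 were above 0 (beside 50.5% over all genes tested).

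Of the markers of proliferation, MKI67 encodes Ki-67, the protein stained to count dividing cells. It was at 237 and 231.5 CPM in control cells against 221 and 216 CPM in NP cells, a difference of −6.77% with no overlap (log2 fold change −0.10, SE 0.037, adjusted p = 0.121). TOP2A, the topoisomerase that untangles sister chromatids, was among the genes measured most precisely. Its CPM were 319 and 326 in control cells against 323 and 332 in NP cells, which overlapped (0.024, SE 0.033, adjusted p = 0.807).

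None of the 4 mitotic kinases grouped together, PLK1, PLK4, AURKA and NEK2, passed the test. PLK1, which acts at entry, at centrosomes and at kinetochores, was at 82.6 and 80.1 CPM in control cells against 82.1 and 79.8 CPM in NP cells, and its interval ran from 0.924-fold to 1.07-fold. AURKA, the kinase of the centrosome and spindle pole, was at 65.8 and 69.3 CPM against 72.3 and 71.7 CPM. Its NP samples were above the controls, with a log2 fold change of 0.093 (SE 0.058, adjusted p = 0.486). PLK4, which starts centriole duplication, had a value of 0.17 (SE 0.093, adjusted p = 0.378), and NEK2, a centrosome kinase, one of −0.027.

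None of the 4 genes of the chromosomal passenger complex, a unit that corrects faulty kinetochore attachments, passed the test. BIRC5 (survivin) was at 72.2 and 71.9 CPM in control cells against 82.5 and 76.5 CPM in NP cells (0.15, SE 0.056, adjusted p = 0.156). CDCA8 (borealin) was at 44.0 and 45.8 CPM against 50.4 and 49.2 CPM (0.15, SE 0.070, adjusted p = 0.275). For both genes the NP samples were above the controls. INCENP, the scaffold of the complex, was at 45.7 and 44.0 CPM in control cells against 38.3 and 40.1 CPM in NP cells (−0.20, SE 0.074, adjusted p = 0.142). The kinase subunit AURKB was at 35.7 and 37.3 CPM in control cells against 38.5 and 37.1 CPM in NP cells, which overlapped (0.054, SE 0.078, adjusted p = 0.821).

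None of the 5 spindle checkpoint genes passed the test. MAD2L1, whose protein MAD2 binds and blocks CDC20, was at 40.7 and 42.1 CPM in control cells against 42.2 and 44.1 CPM in NP cells (0.056, SE 0.074, adjusted p = 0.797). BUB1B, which encodes the checkpoint protein BUBR1, was at 33.5 and 33.0 CPM in control cells against 28.1 and 33.7 CPM in NP cells, so NP 1 was low and NP 2 was the highest sample. Its log2 fold change of −0.12 (SE 0.086, adjusted p = 0.586) turned to 0.019 without NP 1. TTK, the kinase MPS1 that starts the checkpoint signal, had a value of 0.20 (SE 0.121, adjusted p = 0.466), BUB3 0.036 and BUB1 −0.022.

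Among the 7 kinetochore genes, CENPA, which encodes the histone H3 variant that marks the centromere, had the widest difference. It was at 11.8 and 12.4 CPM in control cells against 15.9 and 13.8 CPM in NP cells, both above the controls, with the NP samples far apart. Its log2 fold change of 0.30 (SE 0.126) did not pass after adjustment (adjusted p = 0.210), and was 0.18 without NP 1. NDC80, of the complex that grips the microtubule, was at 21.6 and 23.6 CPM against 24.3 and 24.4 CPM (0.11, SE 0.097, adjusted p = 0.677). Its complex partners had values of 0.095 for NUF2, −0.12 for SPC24 and −0.032 for SPC25. SPC24 and SPC25 are among the lowest in counts, and SPC24 differed more within the control group, 7.19 against 11.4 CPM, than between groups. The corona proteins CENPF and CENPE had values of 0.041 and −0.020.

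The 10 mitotic kinesins had log2 fold changes from −0.064 to 0.065, and none passed the test. KIF11 (Eg5), which pushes the spindle poles apart, was at 70.6 and 72.0 CPM in control cells against 71.1 and 69.6 CPM in NP cells (−0.019, SE 0.057, adjusted p = 0.923). The depolymerase KIF2C had a value of 0.019 and the chromosome-positioning motor KIF18A one of −0.0020. The chromokinesins KIF22 and KIF4A had values of 0.065 and 0.0295, and KIF15, which can stand in for KIF11, 0.0155. KIF23, KIF20A and KIF14, motors of the central spindle and cytokinesis, had values of −0.042, −0.0067 and −0.026, and the minus-end motor KIFC1 one of −0.064. In 8 of the 10 the control and NP samples overlapped (beside 7036 of all 12616 genes tested). KIF4B, a near copy of KIF4A, had 0 to 4 counts a sample, and PTTG2, a near copy of PTTG1, had 0 in every sample.

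None of the other spindle proteins passed the test. DLGAP5 (HURP), which stabilizes microtubules near the chromosomes, was at 16.6 and 15.8 CPM in control cells against 12.1 and 14.6 CPM in NP cells. Both NP samples were below the controls, NP 1 further, and the gene did not pass the test after adjustment (−0.29, SE 0.122, adjusted p = 0.222). Without NP 1 the value was −0.15. HMMR, another spindle-associated protein, had a value of −0.12. TPX2, which activates AURKA on the spindle, and CKAP2, a microtubule stabilizer, had values of −0.023 and −0.019.

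PRC1 and NUSAP1 stood far below the rest in counts. PRC1, which bundles antiparallel microtubules in the central spindle, had 10 and 5 counts in control cells against 15 and 5 in NP cells and was not tested. NUSAP1, a protein of microtubules near chromatin, had 9 and 9 counts in control cells against 16 and 12 in NP cells. The median of the mean counts over all 54 genes was 711. Group sums of 15 against 20 counts for PRC1 gave a ratio of 1.37 (95% interval 0.668 to 2.88), and sums of 18 against 28 for NUSAP1 gave 1.60 (0.855 to 3.07), with intervals that cover counting error only. In the GENCODE 29 annotation, 57.6% of the exonic bases of PRC1 (chr15:90966040-90995629, minus strand) are shared on the same strand with another gene, ENSG00000284946 (AC068831.7 in GENCODE 29), which had 98, 106, 98 and 86 counts. For NUSAP1 (chr15:41320794-41381050, plus strand) 62.2% are shared with ENSG00000285920, which had 0 counts in every sample. NUSAP1 is 3608 bases long in the count table and 2875 in GENCODE 29, so its share may differ in the annotation used for counting. Reads in bases shared by genes can be left out by gene counters; the part of this in these counts was not tested, and the counts of both genes are uncertain as a measure of their RNA. The shares for other genes were far smaller, at most 10.2% on the same strand (BUB1B).

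The genes of the APC/C and of anaphase all had log2 fold changes above 0, and none passed the test. They are 1286 to 2799 bases long, and over all genes tested fold changes were lower in longer genes. The part of gene length in their direction was not tested. CDC20, the activator that the checkpoint holds back, was at 66.9 and 72.0 CPM in control cells against 74.1 and 72.8 CPM in NP cells (0.083, SE 0.058, adjusted p = 0.546). UBE2C and UBE2S, the enzymes that start and lengthen the APC/C's ubiquitin chains, had values of 0.11 (SE 0.055, adjusted p = 0.356) and 0.014. PTTG1 (securin, the inhibitor of separase) had a value of 0.064. In 3 of these 4 genes both NP samples were above both controls (beside 22.5% of all genes tested).

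The 3 cytokinesis genes, 4487 to 5997 bases long, had values below 0, and the part of gene length in this was not tested. ANLN (anillin, a scaffold of the contractile ring) was at 74.1 and 72.7 CPM in control cells against 68.9 and 66.2 CPM in NP cells. Both NP samples were lower, a difference of −7.88% in the mean that did not pass the test (−0.12, SE 0.058, adjusted p = 0.310). ECT2, which activates RhoA at the cell equator, had a value of −0.042, with both NP samples below the controls, and RACGAP1, its partner at the central spindle, one of −0.032. The group summed to 101% and 99.1% of the control mean in the control samples and to 97.1% and 94.4% in the NP samples.

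**Figure D3:**
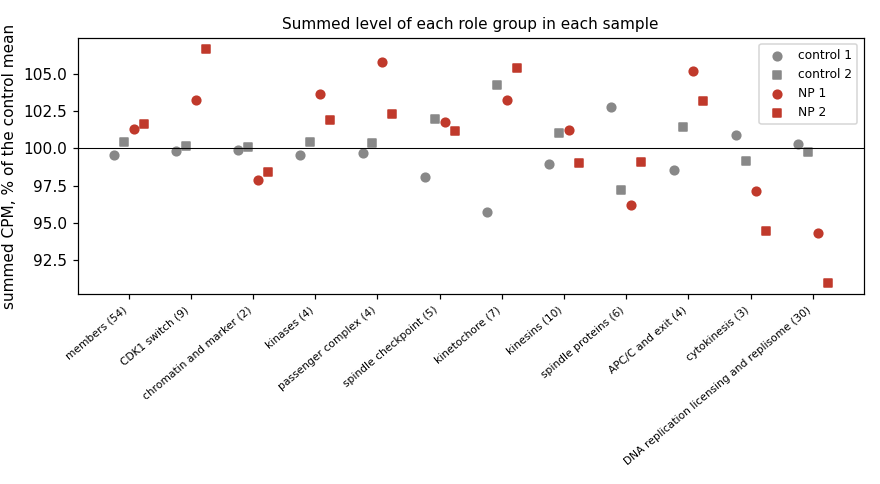
Summed CPM of each role group in each sample, as % of the mean of the control samples (y axis, not from 0; number of genes in brackets; circles sample 1, squares sample 2; gray control, red NP). The sum of the 54 genes spans 99.6% to 101.6%, the CDK1 switch reaches 107% in NP 2, and the replication genes at the right are at 94.3% and 91.0% in the NP samples.

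Levels per gene length (FPKM, which divides counts by the length of the gene and the depth of the sample) spread widely among these genes in both groups. CDC25B was highest, at 76.4 ± 0.516 (SD, n = 2) in control and 77.9 ± 3.62 in NP samples, followed by CKS1B, UBE2C, CKS2 and TOP2A. CKS1B was at 63.8 ± 1.30 against 69.7 ± 1.07 and UBE2C at 60.2 ± 0.660 against 64.3 ± 3.43. CKS2 was at 53.9 ± 5.04 in control and 65.6 ± 0.208 in NP samples, so it did not lie apart from UBE2C in NP samples by more than their spread. TOP2A followed at 50.6 ± 0.656 against 51.3 ± 1.08. Of the 52 genes with more than a few counts CENPE was lowest, at 1.76 ± 0.158 against 1.73 ± 0.00303.

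The fold changes were lower in longer genes. Over 52 genes, Pearson's r between log2 fold change and log2 of the gene length in the table was −0.446 and Spearman's rho −0.39, given as a description, since the genes share the same 4 libraries. Of the 53 tested, the 27 genes up to 3931 bases long had a median log2 fold change of 0.064, with 20 above 0 and 7 below. The 26 longer genes had a median of −0.019, with 10 above 0 and 16 below. The same direction held over all genes tested (r = −0.122, rho = −0.175), where genes in the length range of the 14 shortest mitotic genes had a median of 0.044 and those in the range of the 13 longest one of −0.012, beside 0.074 and −0.020 for the mitotic genes. CKS2, at 616 bases, is the shortest of the mitotic genes and MKI67, at 12845 bases, the longest. With an offset per sample that follows gene length, the relation over the 52 genes was weaker (r = −0.252, rho = −0.239), the call of CKS2 was lost, and no mitotic gene passed the test.

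**Figure D4:**
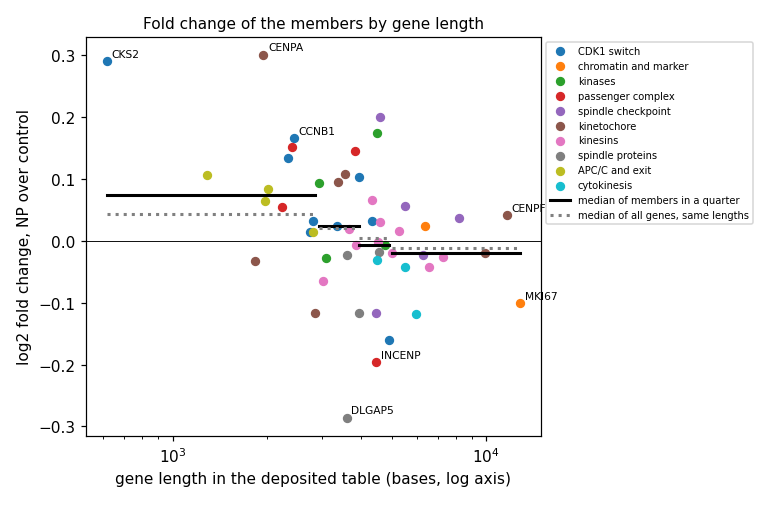
Log2 fold change (NP over control, y axis) of the mitotic genes, except PRC1 and NUSAP1, against gene length in the table (bases, log axis), colored by role. Solid lines give the median of the 53 tested mitotic genes in 4 ranges of length, from 0.074 for the shortest to −0.020 for the longest; dotted lines give the median of all genes tested in the same ranges, from 0.044 to −0.012.

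Other parts of the mitotic machinery, 106 genes in 7 lists, held 3 genes that passed the test, all higher (beside 2.35% of all genes tested), and their median log2 fold change was −0.027. SPDL1 (Spindly), which links dynein to kinetochores, was at 16.6 and 17.4 CPM in control cells against 20.9 and 22.6 CPM in NP cells (0.35, SE 0.107, adjusted p = 0.0445). It was 1 of 25 genes of the inner kinetochore and its partners, and its call was lost on leaving out any of the 4 samples. ANAPC11, the RING subunit of the APC/C, was at 85.4 and 86.2 CPM in control cells against 101 and 95.2 CPM in NP cells (0.20, SE 0.051, adjusted p = 0.0120), the only call among 16 APC/C subunits and inhibitors, and it was lost without control 1, control 2 or NP 1. WEE1, the kinase that restrains CDK1, was at 53.1 and 52.9 CPM against 62.0 and 62.2 CPM (0.23, SE 0.064, adjusted p = 0.0252), 1 of 9 entry kinases and phosphatase regulators. Leaving out any of the 4 samples ended this call, with the log2 fold change at 0.22 to 0.23. The condensin (8 genes), cohesin (13), centrosome (23) and MuvB and B-MYB (12) lists held no call. Their genes with the smallest p were NCAPD3 (−0.15) and NCAPH2 (−0.087) of condensin, PDS5A (0.14) and WAPL (−0.14) of cohesin, ASPM (−0.21, adjusted p = 0.0602) and NUMA1 (−0.12) of the spindle pole, and TFDP1 (0.10) and RBL2 (−0.11) of the MuvB list.

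The genes of DNA replication licensing and the replisome, which prepare and carry out the copying of DNA, give the nearest comparison. Of these 30 genes 6 were called lower (beside 1.7% of all genes tested) and none higher: MCM2, MCM3, MCM4 and MCM6 of the replicative helicase, the sliding clamp PCNA and the polymerase subunit POLE. MCM6 was at 54.9 and 52.6 CPM in control cells against 44.5 and 44.1 CPM in NP cells (−0.28, SE 0.069, adjusted p = 0.00853). The median log2 fold change of the 30 genes was −0.11, with 26 below 0 and both NP samples below both controls in 20, against 0.019, 23 of 53 and 8 of 53 for the mitotic genes. Over all 12616 genes tested, 6246 were below 0, and 21.7% had both NP samples below both controls. The 30 genes summed to 100.3% and 99.7% of the control mean in the control samples and to 94.3% and 91.0% in the NP samples. The count of 6 became 1 without control 1, 4 without control 2, 3 without NP 1 and 2 without NP 2, and 0 with limma. It was 0 with DESeq2, which gave an adjusted p to 12 of the 30, and 6 or 7 in the other 7 alternatives. The difference between the replication and the mitotic genes was not tested.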

How the data were processed

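RNA of 2 control and 2 NP samples of COLO205 cells was sequenced, and 1 table was used. The authors deposited counts, whole numbers of reads per gene, and FPKM values, which the authors made from these counts, the gene lengths of the table and the summed counts. HISAT2, HTSeq and GRCh38 are credited to the submitters' processing notes; for versions, annotation release, strand and RNA selection nothing is given in the sources used. Gene positions in the table overlapped those in GENCODE 29 for all 54 members. Gene lengths were not always the same, and NUSAP1 has 3608 bases in the table and 2875 in GENCODE 29. Totals were 13401691 to 16998129 counts.

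Genes kept by filterByExpr (minimum count 10) of edgeR 4.0.16 (R 4.3.3), 12616 of 19970, were scaled with TMM (factors 0.9963 to 1.0037) and tested with edgeR's quasi-likelihood test, NP against control, two-sided, without other terms. Adjustment followed Benjamini and Hochberg over all genes tested, at a threshold of 0.05. The SE is the log2 fold change, in size, over the root of the F statistic, and 95% intervals use the t quantile of the fit. Beyond counting noise, samples varied by 2.65% (common dispersion 0.0007043). CPM are counts scaled by library size and TMM. The steps were tested on simulated data.

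Members and gene lists were chosen with earlier results of these data known, and sequences come from RefSeq (GRCh38.p14). Every member is named; values per sample are given for members with an unadjusted p under 0.05, 14 anchors of the roles (MKI67, TOP2A, FOXM1, CDK1, CCNB1, CDC20, PLK1, AURKA, AURKB, BUB1B, MAD2L1, NDC80, KIF11, PRC1) and members below the filter. NUSAP1 was added after its values were seen, as was MCM6. Of the other lists, genes that passed the test are named, otherwise up to 2 with the smallest p. The alternatives were DESeq2 1.42.0, edgeR's exact test, limma 3.58.1 on log2(FPKM + 1) and log2(FPKM + 0.1), RLE factors, library size alone, other count filters, a replicate block, an offset for gene length and leaving out each sample.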

Additional observations from a re-analysis of the deposited data

How the results depend on the processing

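No mitotic gene was called lower in any of the 14 alternatives. The count called higher, 1 as reported, was 3 with edgeR's exact test (CKS2, CCNB1 and CKS1B) and 0 with an offset for gene length, with DESeq2, and with limma on log2(FPKM + 1) and on log2(FPKM + 0.1). Limma called no gene at all, and DESeq2 gave an adjusted p to only 23 of the 54 genes, of which the lowest was 0.278; CKS2 had none. Leaving out 1 sample gave counts of 0 to 1 and a median log2 fold change of 0.0185 to 0.0362, highest without control 2. With the replicate block the count was 3 (CKS2, CCNB1 and CKS1B) and over all genes 372 higher and 280 lower, in place of 297 and 215. The labels do not say that equal numbers share a culture or day, and the ratios of sample 1 to sample 2 in the 2 groups had a correlation of −0.015 over 9326 genes, so the numbers were not taken as pairs. CKS2 was called in 7 of the 13 alternatives that gave it an adjusted p (log2 fold change 0.17 to 0.39, adjusted p 0.00931 to 0.473). On leaving out 1 sample, PLK1 ran from −0.0307 to 0.0146 and BUB1B from −0.2445 to 0.0188. Among the other uncalled genes with values per sample and a size that reached 0.1, leaving out 1 sample moved some by over 1.5 times. These were CDK1, CENPA and DLGAP5 (given with these genes), BIRC5 (0.087 without NP 1) and NDC80 (0.043 without control 1, 0.17 without control 2). Others were CDC20 (0.030) and AURKA (0.054) without control 1, each at 0.13 without control 2. Of the 53 genes tested, 32 kept their sign in every alternative, and 50 of them were called in none. With 2 samples a group, most of these genes had 95% intervals between 20% lower and 25% higher, so changes inside that range may have been missed. Those intervals rest on the spread among the 4 samples, which may be technical, so larger changes are not excluded. For PRC1 and NUSAP1 the counts limit any statement.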
